A study of Mus musculus with 8 samples.

Results

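The genes described here are 10 genes of the piRNA pathway and of germ cell RNA binding, Dazl, Boll, Ddx4, Mael, Tdrd1, Tdrkh, Piwil2, Piwil4, Asz1 and Mov10l1, taken from 19938 genes that had a probe set of their own on the array. They were chosen as a named list by function, and each was read by 1 probe set that names no other gene. Gene expression was measured in E14 cells, a feeder-independent mouse embryonic stem cell (ESC) line grown in medium with LIF, that stably carried an shRNA against Kdm2b (shKdm2b, 4 arrays, passages 27 to 30), and in E14 cells that stably carried a scrambled control shRNA (shScr, 4 arrays, passages 28 to 31). Both lines were made with lentivirus and puromycin selection, so that the control line also carried a vector and an expressed hairpin. The samples are described as biological replicates taken side by side, but a group has only 1 shRNA and nothing says that its replicates are lines made apart, so that p-values cover the spread of these samples alone and may miss that of other shRNAs or clones. The comparison asks what happened to the mRNAs of these genes when KDM2B, a protein that binds non-methylated CpG dinucleotides and carries a polycomb repressive complex to CpG islands, was depleted.

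piRNAs are small RNAs of the germ line that guide proteins of the PIWI family to the transcripts of transposons. In mouse testis, precursor RNAs are handed to PIWI proteins by a helicase, processed at the surface of mitochondria and gathered in nuage, a granular structure built from Tudor domain proteins and the helicase DDX4. The nuclear PIWI protein then directs DNA methylation to transposons in fetal male germ cells. The DAZ family proteins DAZL and BOLL bind mRNAs of germ cells and govern their translation. Many genes of these groups have CpG-rich promoters that are methylated or otherwise silenced in somatic cells, and part of them is transcribed at some level in ESCs.

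The only sequence that differed by design between the lines was the 21-base sequence of the shRNA. It is shown here for both lines, with no base marked.
shKdm2b: cgctgtggaaatatctgtcat
shScr: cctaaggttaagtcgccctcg

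Promoters are shown because KDM2B recognises CpG dinucleotides, for the gene that met the gene rule (Boll, with both of its RefSeq starts) and for a gene with a lower and a gene with a higher signal that passed in the paired fit described further on (Ddx4 and Tdrkh). Each window runs from 250 bases before to 50 bases after a RefSeq transcription start in build GRCm38.p6, 5′ to 3′ along the gene, with every CpG in capitals. The upstream Boll window is chr1:55363704-55364003 and the downstream one chr1:55362679-55362978, both on the minus strand. The Ddx4 window is chr13:112652261-112652560 on the minus strand and the Tdrkh window chr3:94412994-94413293 on the plus strand.
Boll, upstream start: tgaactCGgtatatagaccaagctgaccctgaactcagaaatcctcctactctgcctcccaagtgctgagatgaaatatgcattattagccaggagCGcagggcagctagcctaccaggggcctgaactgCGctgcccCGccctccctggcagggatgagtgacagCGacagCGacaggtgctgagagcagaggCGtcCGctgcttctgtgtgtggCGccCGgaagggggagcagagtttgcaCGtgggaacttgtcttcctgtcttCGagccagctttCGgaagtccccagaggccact
Boll, downstream start: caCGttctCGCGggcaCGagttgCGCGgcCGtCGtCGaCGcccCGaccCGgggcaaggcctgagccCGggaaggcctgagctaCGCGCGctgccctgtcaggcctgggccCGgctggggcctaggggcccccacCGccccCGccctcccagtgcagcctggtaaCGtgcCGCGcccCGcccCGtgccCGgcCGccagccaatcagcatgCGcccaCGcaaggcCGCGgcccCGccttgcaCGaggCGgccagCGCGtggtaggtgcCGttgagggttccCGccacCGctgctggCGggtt
Ddx4: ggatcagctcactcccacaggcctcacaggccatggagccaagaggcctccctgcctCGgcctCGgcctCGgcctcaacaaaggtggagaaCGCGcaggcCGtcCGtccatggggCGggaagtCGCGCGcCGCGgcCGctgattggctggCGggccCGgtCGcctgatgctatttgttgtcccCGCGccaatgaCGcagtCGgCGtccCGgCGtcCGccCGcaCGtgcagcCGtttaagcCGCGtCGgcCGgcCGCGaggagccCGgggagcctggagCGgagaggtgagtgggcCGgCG
Tdrkh: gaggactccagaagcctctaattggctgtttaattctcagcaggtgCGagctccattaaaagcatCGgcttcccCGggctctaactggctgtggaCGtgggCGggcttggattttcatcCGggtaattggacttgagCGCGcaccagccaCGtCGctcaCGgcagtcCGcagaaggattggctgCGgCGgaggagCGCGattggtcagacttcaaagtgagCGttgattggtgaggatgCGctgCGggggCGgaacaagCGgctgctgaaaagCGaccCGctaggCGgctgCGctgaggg

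The 2 starts of Boll lie in windows of different composition. The upstream window held 13 CpGs with an observed over expected CpG ratio of 0.50, and the downstream window held 39 CpGs with a ratio of 0.89. The Ddx4 window held 38 CpGs (ratio 0.98) and the Tdrkh window 25 (ratio 0.96). RefSeq windows were matched for 9 of the 10 genes, 13 windows in all, and Piwil2 is the gene without one. Of these 9 genes, 8 had at least 1 CpG-rich window (ratio over 0.6 and GC content over 50%). Of the 13 windows 69.2% were CpG-rich, against 33.3% of the 32851 windows of all genes. The exception was Piwil4, whose windows held 11 and 0 CpGs.

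The E-box CACGTG, the letters bound by MGA and MAX among other factors, was searched on both strands, which read the same. It was present in 6 windows of 5 genes (Boll, Ddx4, Mael, Tdrd1 and Mov10l1), that is 46.2% of the 13 windows, against 7.15% of all windows. In the upstream Boll window it began 9 bases before the start, and in the Ddx4 window 29 bases before it. The letters GCGGGA, or TCCCGC on the other strand, which occur in sites of E2F factors, were in windows of 3 genes (Boll, Ddx4 and Mael), 23.1% of the 13 windows against 19.98% of all windows. No such match overlapped an E-box. The windows of a gene can overlap, and overlapping Tdrd1 windows hold the same E-box, which was counted in each. Both motifs hold a CpG, and the 13 windows had a median of 20 CpGs, against 7 for all windows. The shares were not matched for CpG content. A match describes letters and not a bound site.

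The targeted mRNA was lower on the arrays of the knockdown line, which checks the labels. Kdm2b signal on the log2 scale was 8.68, 9.12, 9.45 and 8.91 in shKdm2b replicates 1 to 4, against 10.74, 11.10, 11.34 and 11.20 in shScr replicates 1 to 4, a log2 fold change of -2.05 with a limma adjusted p of 0.000891. ESC markers kept a bright signal in both lines. The list mean over 10 genes was 13.22 to 13.26 on the shKdm2b arrays and 12.96 to 13.19 on the shScr arrays. None of the 10 met the gene rule, but 9 had a log2 fold change above 0. At an unadjusted p under 0.05 (limma), 6 were higher and 0 lower, where 25.8% of all probe sets differed in either direction. Array medians were 8.47 to 8.53, as the RMA normalization by the authors sets the arrays to the same distribution. All values below are log2 signals or differences between them, and signals of different genes are not set against each other because they depend on the probes.

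Among the 10 genes, Boll alone changed by the gene rule that the study's methods state, an adjusted p under 0.05 for most probe sets of the gene and a change of at least 1.5-fold. It fell, and the other 9 genes were not called. Over all genes, 2.85% met this rule, 1.42% as higher and 1.43% as lower, and 1 of 10 cannot be set apart from that share. An adjusted p under 0.05, whatever the size of change, was also reached by Boll alone, while 8.48% of all probe sets reached it. At an unadjusted p under 0.05, 3 of the genes were higher (Tdrkh, Piwil2 and Asz1) and 2 lower (Boll and Ddx4), which is 5 of 10 beside 25.8% of all probe sets. The median log2 fold change of the 10 genes was 0.03, with a range of -0.93 to 0.44, beside a median of 0.05 over all genes. In bulk RNA, fewer cells that transcribe a gene and less RNA per cell cannot be told apart.

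**Figure D1:**
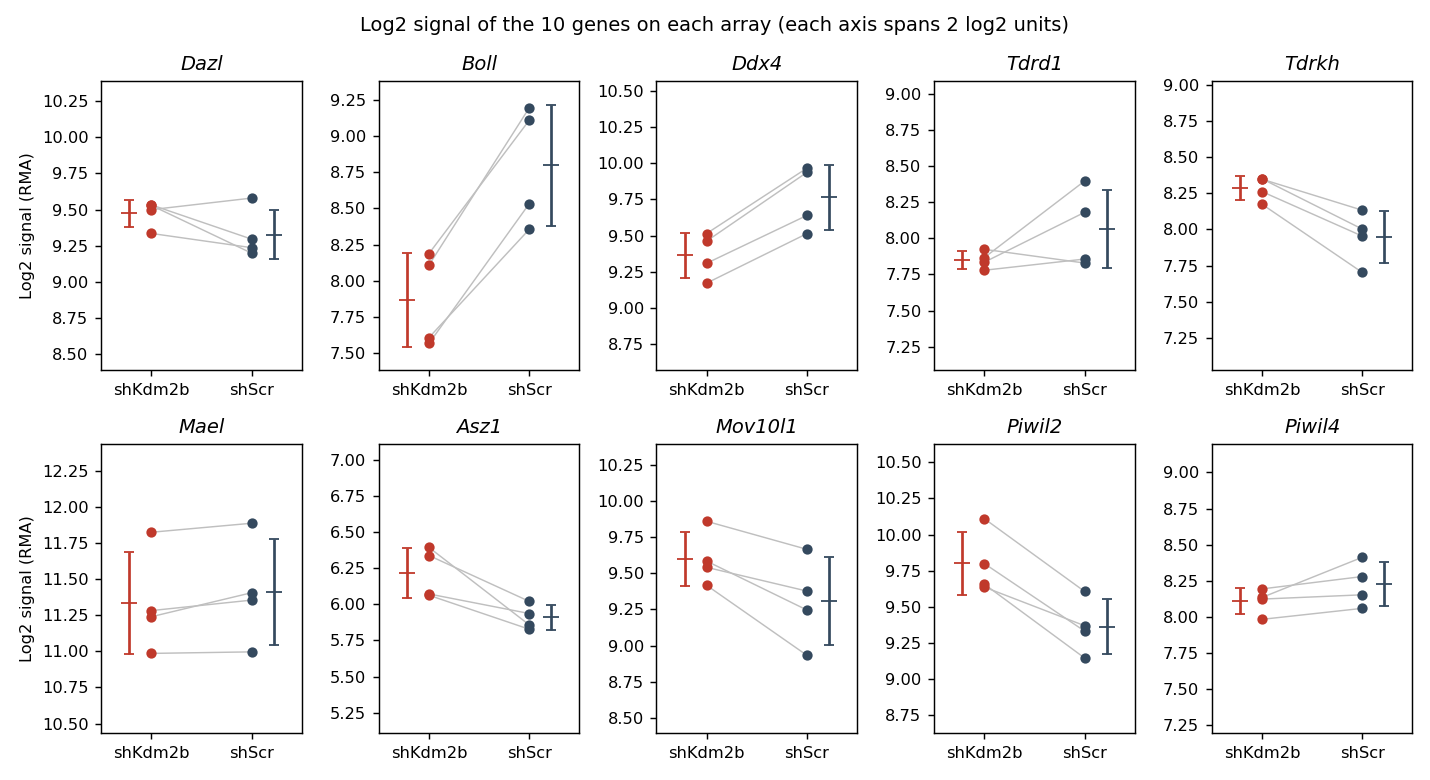
Log2 signal of each of the 10 genes on the 4 shKdm2b arrays (left, red) and the 4 shScr arrays (right, dark), with grey lines joining arrays of the same replicate number and bars for the mean and SD (n = 4 per group). Boll is lower on all shKdm2b arrays (7.57 to 8.19) than on any shScr array (8.36 to 9.20), and the lines of Mael are nearly flat.

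Of the RNA-binding proteins of the DAZ family, Boll encodes the ancestral member, which in mice is needed for the formation of spermatids. Its log2 signal was 7.61, 7.57, 8.11 and 8.19 in shKdm2b replicates 1 to 4, against 8.36, 8.53, 9.20 and 9.11 in shScr replicates 1 to 4. The groups did not overlap, and in both of them replicates 1 and 2 were below replicates 3 and 4. The means were 7.87 ± 0.33 in shKdm2b cells and 8.80 ± 0.42 in shScr cells (SD, n = 4 each). Boll thus fell by 0.93 on the log2 scale, that is, it decreased by 47.6% (standard error SE 0.22, 95% confidence interval CI -1.44 to -0.42, limma adjusted p = 0.0398). This call was not stable, since leaving out any single array other than shKdm2b replicate 3 or shScr replicate 1 brought the adjusted p to between 0.0628 and 0.110, at log2 fold changes of -1.04 to -0.80.

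Dazl encodes the DAZ family member that acts earlier, in the commitment of primordial germ cells and in meiosis. Its signal was 9.53, 9.53, 9.34 and 9.50 in shKdm2b cells, against 9.20, 9.30, 9.24 and 9.58 in shScr cells. The groups overlapped, with shScr replicate 4 above every shKdm2b array. The log2 fold change was 0.15 (SE 0.09, 95% CI -0.06 to 0.36, limma adjusted p = 0.353). The interval lies within 1.5-fold in either direction.

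Ddx4, the mouse homologue of Drosophila vasa, encodes a DEAD box RNA helicase of nuage that is widely used as a germ cell marker. Its signal was 9.31, 9.17, 9.51 and 9.46 in shKdm2b cells, against 9.64, 9.51, 9.97 and 9.94 in shScr cells. The groups met at their edges, where shKdm2b replicate 3 stood level with shScr replicate 2. The log2 fold change was -0.40 (SE 0.12, 95% CI -0.68 to -0.12, limma adjusted p = 0.0800), and all 4 shKdm2b arrays were below the shScr array of the same number, by 0.33 to 0.48.

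The 3 genes with the clearest shift to higher signal encode proteins of different steps. Piwil2 encodes MILI, a cytoplasmic PIWI protein that is loaded with primary piRNAs. Its signal was 9.66, 9.64, 9.80 and 10.11 in shKdm2b cells, against 9.15, 9.37, 9.33 and 9.61 in shScr cells, and the lowest shKdm2b array was just above the highest shScr array. Its log2 fold change was 0.44 (SE 0.13, 95% CI 0.15 to 0.73, limma adjusted p = 0.0728).

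Tdrkh encodes a Tudor and KH domain protein at the mitochondrial surface that takes part in the trimming of piRNA 3′ ends. Its signal was 8.26, 8.17, 8.35 and 8.35 in shKdm2b cells, against 7.95, 7.70, 8.002 and 8.13 in shScr cells. The groups did not overlap, by a narrow margin, and shScr replicate 2 was the lowest array. The log2 fold change was 0.34 (SE 0.09, 95% CI 0.12 to 0.55, limma adjusted p = 0.0623). Asz1 encodes GASZ, an ankyrin repeat protein of the mitochondrial outer membrane on which nuage is assembled. Its signal was 6.34, 6.07, 6.06 and 6.39 in shKdm2b cells, against 6.02, 5.94, 5.83 and 5.86 in shScr cells. The arrays of the groups again did not overlap, and the log2 fold change was 0.31 (SE 0.09, 95% CI 0.10 to 0.51, limma adjusted p = 0.0779). The Asz1 probe set belongs to the dimmest 25% of all probe sets, those with a mean under 7.03, where RMA compresses fold changes.

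The other piRNA genes showed smaller differences with overlapping groups. Mov10l1 encodes the RNA helicase that binds piRNA precursors and is required for their processing. Its signal was 9.58, 9.42, 9.54 and 9.86 in shKdm2b cells, against 9.25, 8.93, 9.38 and 9.67 in shScr cells, with replicate 4 the highest array of both groups. The log2 fold change was 0.30 (SE 0.15, 95% CI -0.06 to 0.65, limma adjusted p = 0.268).

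Tdrd1 encodes a scaffold of nuage whose Tudor domains bind methylated arginines of MILI. Its signal was 7.92, 7.78, 7.87 and 7.83 in shKdm2b cells, against 7.83, 7.86, 8.40 and 8.18 in shScr cells. The shKdm2b arrays lay close together (SD 0.06), whereas shScr replicates 3 and 4 were above the other arrays (SD 0.27). The log2 fold change was -0.21 (SE 0.12, 95% CI -0.50 to 0.07, limma adjusted p = 0.312). Piwil4 encodes MIWI2, the nuclear PIWI protein that directs methylation to transposons, with a signal of 7.98 to 8.19 in shKdm2b cells, against 8.06 to 8.41 in shScr cells. Its log2 fold change was -0.12 (SE 0.09, 95% CI -0.31 to 0.08, limma adjusted p = 0.421).

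Mael encodes maelstrom, a protein of nuage and nucleus that takes part in transposon silencing. Its signal was 10.99, 11.28, 11.24 and 11.82 in shKdm2b cells, against 10.996, 11.35, 11.41 and 11.89 in shScr cells. The spread within each group, from the lowest array in replicate 1 to the highest in replicate 4, was far larger than the difference between groups. The log2 fold change was -0.08 (SE 0.22, 95% CI -0.57 to 0.41, limma adjusted p = 0.847).

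Over the 10 genes, the 95% confidence interval lay within 1.5-fold in either direction for 6 (Dazl, Mael, Tdrd1, Tdrkh, Piwil4 and Asz1), while for Boll, Ddx4, Piwil2 and Mov10l1 it extended past 1.5-fold. For 4 genes, Boll (lower), Tdrkh, Piwil2 and Asz1 (higher), the arrays of the groups did not overlap. This was the case for 17.0% of all probe sets.

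**Figure D2:**
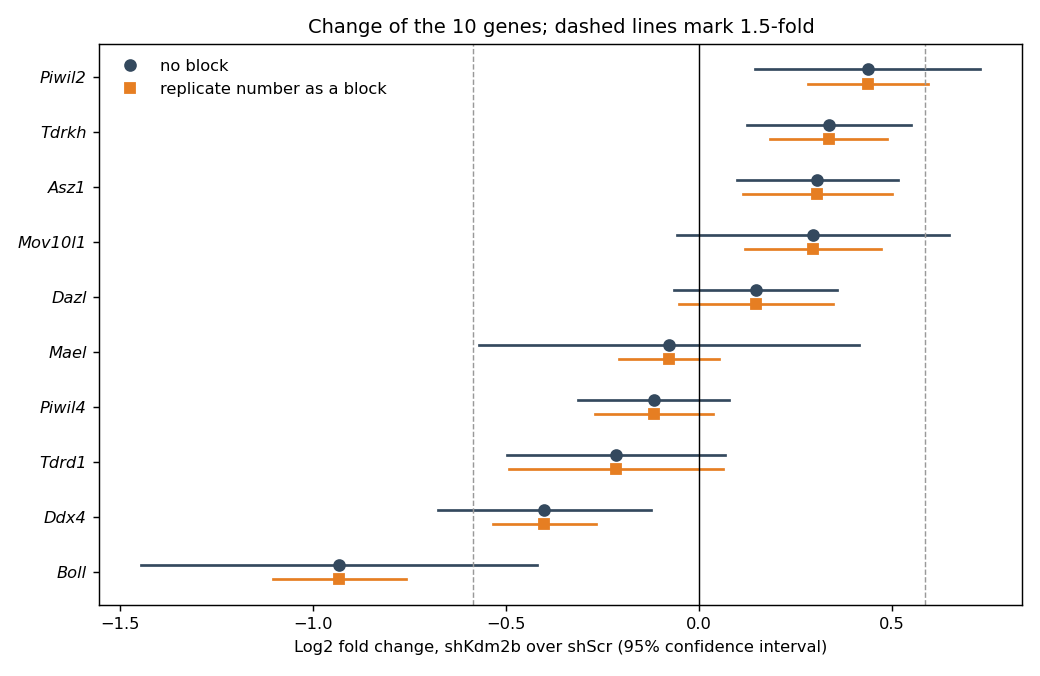
Log2 fold change of shKdm2b over shScr cells for the 10 genes with 95% confidence intervals, from the fit without a block (dark circles) and from that in which replicate number is the block (orange squares). Dashed lines mark 1.5-fold, and the block narrows the intervals most for Mael and Boll, with Boll at -0.93 and Piwil2 at 0.44 in both fits.

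For some of these genes much of the spread was shared by arrays of the same replicate number, although no source states that a number marks a shared collection. For Mael the differences of the pairs, shKdm2b minus shScr, were -0.01, -0.07, -0.17 and -0.06 for replicates 1 to 4 (SD 0.06), although the signal varied with an SD of 0.35 among shKdm2b and 0.37 among shScr arrays. For Boll they were -0.75, -0.97, -1.09 and -0.92, and for Piwil2 0.51, 0.27, 0.47 and 0.50. The pair differences of Dazl and Tdrd1, by contrast, varied in sign. They lay between -0.08 (replicate 4) and 0.33 (replicate 1) for Dazl, and between -0.53 (replicate 3) and 0.09 (replicate 1) for Tdrd1. For Asz1 the pair differences had an SD of 0.17, against 0.17 among shKdm2b and 0.09 among shScr arrays. In 8 of the 10 genes all 4 pairs had the same sign, lower in shKdm2b cells for Boll, Ddx4, Mael and Piwil4, and higher for Tdrkh, Piwil2, Asz1 and Mov10l1. Over all probe sets, 40.2% had all 4 pairs of the same sign.

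With the replicate number as a block, 4 of the 10 genes had an adjusted p under 0.05 in place of 1, against 12.2% of all probe sets in that fit. Boll passed with a standard error of 0.07 (limma adjusted p = 0.00528). Ddx4 was lower (SE 0.05, limma adjusted p = 0.0143), and Piwil2 and Tdrkh were higher (SE 0.06 and 0.06, limma adjusted p = 0.0163 and 0.0277). These 3 genes changed by less than 1.5-fold, so that Boll remained the only one of the 10 that met the gene rule. Mov10l1 and Asz1 did not pass with the block, at adjusted p = 0.0533 and 0.0604 (limma).

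The replicate number also goes with the passage, since each shKdm2b sample was 1 passage below the shScr sample of its number, and setting arrays of the same passage against each other gave other differences. At passages 28, 29 and 30, Boll was lower in shKdm2b cells by log2 differences of -0.79, -0.42 and -1.01, and Piwil2 was higher by 0.49, 0.43 and 0.78. Ddx4, in contrast, differed by -0.47, 0.00 and -0.50, and Mael by 0.29, -0.12 and 0.42. Of the 10 genes, 6 kept the same sign at all 3 shared passages, as did 38.8% of all probe sets. In a fit of these 6 arrays with the passage as a block none of the 10 genes passed. An unadjusted p under 0.05 (limma) was reached by 5 of them, beside 16.8% of all probe sets. These were Boll, Ddx4, Tdrkh, Piwil2 and Mov10l1, whereas Asz1 was no longer among them (unadjusted p = 0.102, limma). Boll and Piwil2 had log2 fold changes of -0.74 and 0.57 (limma adjusted p = 0.0871 and 0.0874). Within a line each number stands for 1 passage, so that replicate and passage cannot be told apart there.

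**Figure D3:**
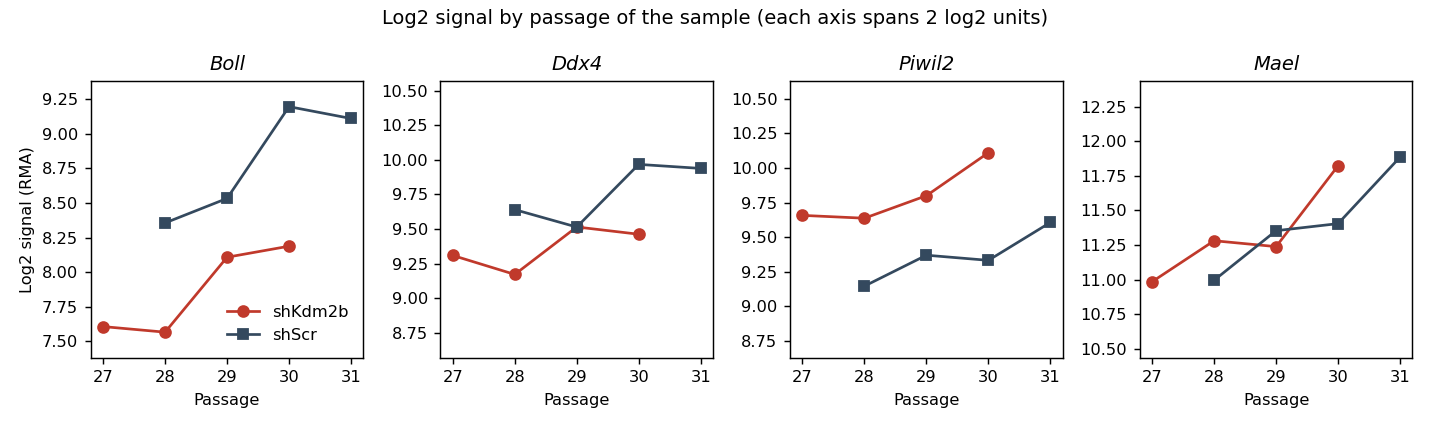
Log2 signal of Boll, Ddx4, Piwil2 and Mael against the passage of the sample, with shKdm2b cells as red circles (passages 27 to 30) and shScr cells as dark squares (passages 28 to 31). At shared passages the lines of Boll and Piwil2 stay apart, those of Ddx4 meet at passage 29 (difference 0.00) and those of Mael cross.

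Other genes of the piRNA pathway were measured from a list of 25, of which 22 had a probe set of their own. By the gene rule 1 of these rose, 1 fell and 20 were not called, where 2.85% of all genes met the rule. The median log2 fold change was 0.09, beside 0.05 over all genes. Gpat2 encodes a mitochondrial acyltransferase family protein that binds MILI and is needed for primary piRNAs. Its signal was 9.34, 9.17, 9.32 and 9.40 in shKdm2b cells, against 8.15, 8.30, 8.21 and 8.42 in shScr cells. Gpat2 therefore stood apart in every sample and rose by 1.04 on the log2 scale (SE 0.08, limma adjusted p = 0.000509).

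Morc1 encodes an ATPase that silences transposons in male germ cells. Its signal was 10.78, 11.24, 11.44 and 11.22 in shKdm2b cells, against 11.69, 12.02, 11.82 and 11.82 in shScr cells. It fell by 0.67 (SE 0.14, limma adjusted p = 0.0234), with no overlap of the groups. The call on Morc1 was lost without shKdm2b replicate 1, 2 or 4 or shScr replicate 2, 3 or 4, where it either failed the test, at an adjusted p of up to 0.0657, or changed less than 1.5-fold. A further gene of the list had an adjusted p under 0.05, Prmt5, which encodes an arginine methyltransferase that modifies PIWI proteins and is named here after its values were seen. Its log2 fold change was -0.29 (SE 0.06, limma adjusted p = 0.0255).

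Of 25 listed genes for other germ cell RNA-binding and RNA-regulating proteins, 24 were measured. Here too 1 rose, 1 fell and 22 were not called, beside the same 2.85% of all genes. The median log2 fold change was -0.06, beside 0.05 over all genes. Meioc, whose product works with the RNA helicase YTHDC2 to let germ cells enter the meiotic programme, had a signal of 11.46, 11.51, 11.53 and 11.74 in shKdm2b cells, against 10.58, 10.48, 10.67 and 10.83 in shScr cells. Its groups did not overlap either, and it rose by 0.92 (SE 0.09, limma adjusted p = 0.00178).

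Rbm46, which encodes an RNA-binding protein required for meiosis, had a signal of 7.99, 7.71, 7.76 and 7.80 in shKdm2b cells, against 9.18, 8.29, 8.61 and 8.70 in shScr cells. It fell by 0.88, and shScr replicate 1 was the highest array (SE 0.17, limma adjusted p = 0.0190). The call on Rbm46 was lost without shKdm2b replicate 2 or 4 or shScr replicate 3 or 4, where the limma adjusted p was 0.0503 to 0.0634. Lin28a, a gene for a protein that blocks the maturation of let-7, is named after its values were seen as the other gene of the list with an adjusted p under 0.05, at a log2 fold change of -0.40 (SE 0.10, limma adjusted p = 0.0439).

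**Figure D4:**
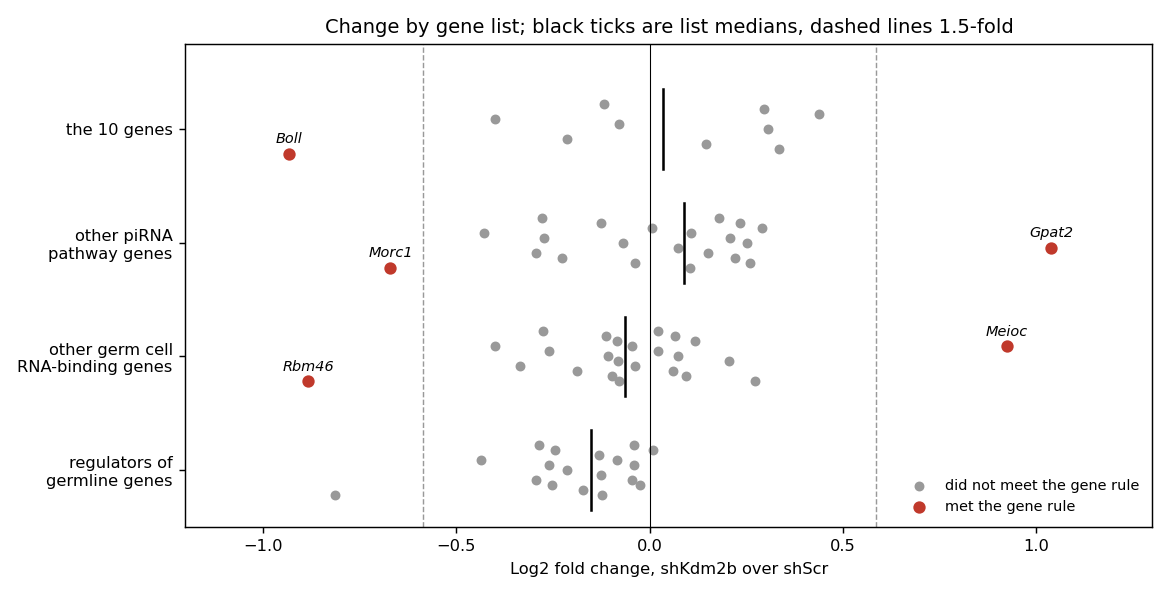
Log2 fold change of shKdm2b over shScr cells for each gene of 4 lists, with genes that met the gene rule in red and list medians as black ticks. Besides Boll at -0.93, the red points are Gpat2 (1.04), Morc1 (-0.67), Meioc (0.92) and Rbm46 (-0.88), and no regulator of germline genes is among them.

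Factors known to keep germline promoters silent in mouse ESCs include the polycomb complex with PCGF6, MGA and E2F6, the H3K9 methyltransferases and the DNA methyltransferases. Of 18 such genes, none met the gene rule in limma, 7 were lower at an unadjusted p under 0.05 and none was higher, where 13.6% of all genes were lower at that p. The median log2 fold change was -0.15, and 17 of the 18 had a value below 0, as did 38.3% of all genes. The genes behind these shares were not matched to the list for signal level. Setdb1 and Ehmt2, which encode H3K9 methyltransferases, were at log2 fold changes of -0.29 for Setdb1 and -0.25 for Ehmt2 (SE 0.06 and 0.06, limma adjusted p = 0.0302 and 0.0370). Tfdp1, the gene of a dimer partner of E2F proteins, had a value of -0.21 (SE 0.06, limma adjusted p = 0.0512) for the probe set with the smaller p of its 2, and -0.19 (limma adjusted p = 0.0778) for the other. When the replicate number was a block, 1 gene of this list met the rule, the DNA methyltransferase gene Dnmt3b, whose log2 fold change was -0.81 (adjusted p = 0.0103 with the block and 0.0884 without it, limma). With passages 28 to 30 and passage as the block that call was lost. Dnmt3b was then at a log2 fold change of -0.56 (limma adjusted p = 0.293), with passage differences of -0.14, -0.34 and -1.204. Setdb1 and Ehmt2 did not pass in that fit either, at log2 fold changes of -0.23 and -0.24 (limma adjusted p = 0.262 and 0.257).

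The profile of Boll over the 8 arrays was nearest to that of Lin28b, when each gene was taken relative to the mean of the shScr arrays and 19937 other genes were compared. The root mean square difference was 0.10 on the log2 scale for Lin28b, the gene of a second blocker of let-7 maturation, whose own log2 fold change was -0.91 (SE 0.18, limma adjusted p = 0.0223). It was 0.17 for Rragd, a Rag GTPase gene, 0.18 for the palmitoyltransferase gene Zdhhc23, and 0.19 for both Efnb2, the gene of the ligand ephrin-B2, and Gatm, the gene of an enzyme of creatine synthesis. These genes were chosen for their likeness, and their fold changes of -0.96 to -0.89 follow from it.

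Markers of other states that the cultures could hold were also read, and some of them differed between the groups. Their part in the results above was not tested. Over all genes, 2.85% met the gene rule. Of 8 primordial germ cell markers, 1 rose, Prdm14 (log2 fold change 0.59, limma adjusted p = 0.0226), and 7 did not meet the rule. Ifitm3 was lower without reaching 1.5-fold (-0.45, limma adjusted p = 0.00659), and Dppa3 had values of -0.51 and -0.63 on its 2 probe sets (limma adjusted p = 0.0742 and 0.0791). The list mean was 9.96 to 10.40 on shKdm2b arrays and 9.96 to 10.30 on shScr arrays. Of 12 spermatocyte and spermatid markers, the meiotic genes Dmc1 and Sycp3 rose (log2 fold changes 0.61 and 0.61, limma adjusted p = 0.00566 and 0.00656) and 10 did not meet the rule. Sycp1, also a meiotic gene, had a log2 fold change of -0.79 with no overlap of the groups (limma adjusted p = 0.0990), and it met the rule as lower when replicate number was the block (limma adjusted p = 0.0101). Ifitm3, Dppa3 and Sycp1 are named after their values were seen. In the fit of passages 28 to 30, the limma adjusted p was 0.181 for Prdm14, 0.102 for Dmc1, 0.109 for Sycp3 and 0.166 for Sycp1. The spermatocyte and spermatid list had a mean of 8.15 to 8.20 on shKdm2b arrays and 8.02 to 8.12 on shScr arrays.

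In the 2-cell-like state, rare ESCs switch on transcripts of the 2-cell embryo, and many of its genes have near-identical copies. Of 8 measured markers of this state, 7 fell by the gene rule, which 1.43% of all genes met as lower. The list mean was 6.52 to 6.72 on shKdm2b arrays and 8.43 to 9.56 on shScr arrays. In shScr replicates 1 to 4 this mean was 9.28, 8.67, 8.43 and 9.56, where the Boll signal was 8.36, 8.53, 9.20 and 9.11. Any link between this mean and Boll was not tested. Of the 7 primitive endoderm and 8 fibroblast markers, 1 rose by the rule, beside 1.42% of all genes. It was the fibroblast list gene Thy1 (log2 fold change 0.72). Of the fibroblast markers, 5 were below 0 and 3 above. Of the primitive endoderm markers, 5 were above 0 and 2 below. Sox7 was at 0.40 (limma adjusted p = 0.0279), and Dab2 at -0.95 and 0.08 on its 2 probe sets (limma adjusted p = 0.0525 and 0.624). Both are named after their values were seen. With the replicate block, 4 primitive endoderm markers were higher and 1 lower at an adjusted p under 0.05 (limma), against 12.2% of all probe sets.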

How the data were processed

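Total RNA of 4 shKdm2b and 4 shScr samples was measured on an Affymetrix expression array each. The authors deposited log2 values that RMA (oligo 1.18.1) gave from the raw intensities, with a build and annotation not stated in the sources used here. GEO's platform annotation names the probe sets, and symbols were updated by gene identifier through the RefSeq table of GRCm38.p6. Of 35556 probe sets, 21789 name 1 gene, 1621 several and 12146 none here. Listed genes without a probe set of their own were not analysed here. The small number of arrays limits the precision, and so does RMA, which compresses changes of dim probe sets and hides a shift shared by most transcripts.

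A linear model was fitted to every probe set in limma 3.58.1 (R 4.3.3; lmFit, eBayes), p-values were adjusted by Benjamini-Hochberg over all of them, and the gene rule is that of the study's methods. The fit was tested on simulated data. The 10 genes, the lists and the alternatives were chosen with earlier results of these data known. All 10 genes are named, with every called gene of another list or else the 3 with the smallest p, and for a called gene of the 10 the 5 nearest profiles. Deviations of equally numbered samples from the mean of their group correlated across probe sets (r = 0.239, 0.118, 0.355 and 0.222), against -0.231 to 0.0747 for unequal numbers, which is why a fit with the number as a block is given too. Alternatives left out each array, the dimmest 25% of probe sets or the unshared passages, or changed the prior or the array medians. Promoters are from RefSeq, and figures were drawn with matplotlib 3.10.9.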

Additional observations from a re-analysis of the deposited data

Results flagged for a closer look

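For Dazl, the signal of shKdm2b replicate 3 (9.34) stood below the other 3 shKdm2b arrays, of which the nearest was at 9.50, by 0.832 of the range of the group, past the 95% limit of Dixon's test for 4 values. This was the only such array among 20 groups of values (10 genes in 2 lines), and chance gives about 1 in 20.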

How the results depend on the processing

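Leaving out each array in turn gave 358 (without shKdm2b replicate 2) to 829 (without shKdm2b replicate 3) genes that met the gene rule over the whole array, in place of 569. Of the 10 genes, 0 to 1 then met it and 0 to 2 had an adjusted p under 0.05 (limma), where the counts of 0 came without shKdm2b replicate 1, 2 or 4 or shScr replicate 2, 3 or 4 and the second gene was Asz1, without shKdm2b replicate 3. At an unadjusted p under 0.05 (limma), 5 of the 10 genes differed with all arrays, beside 25.8% of all probe sets. The counts were 1 to 2 for the other piRNA genes, 1 to 2 for the other RNA-binding genes and 0 to 1 for the regulators, and the log2 fold change of Mael lay between -0.24 (without shKdm2b replicate 4) and 0.081 (without shScr replicate 4). With only passages 28 to 30 and the passage as a block, 160 genes met the rule in all, with 0 of the 10 genes, 1 other piRNA gene (Gpat2) and 1 other RNA-binding gene (Meioc). In that fit, 0 of the 10 genes had an adjusted p under 0.05, and Mael reversed to 0.20. These fits have fewer arrays. With the replicate block, 4 of the 10 genes had an adjusted p under 0.05 and 1 regulator (Dnmt3b) and the marker Sycp1 met the rule, and it changed no other call of the lists by that rule. Without the dimmest 25% of probe sets, Asz1 was not fitted, and 2 of the other genes of the 10 had an adjusted p under 0.05. The second was Tdrkh (limma adjusted p = 0.0477), in a fit of fewer probe sets. For this fit, that of passages 28 to 30 and those without an array, the share of all probe sets at that adjusted p was not counted. A trended, robust prior and a shift of the arrays to the same median changed none of these counts by more than 1.5 times. Apart from Mael, no gene of the 10 changed sign under any of these settings in which it was fitted (Asz1 was not, without the dimmest 25%).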
